A study of Mus musculus with 3 samples.

Results

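The reads of 35 to 44 nt are the longest small RNAs in 3 sequencing libraries, and nearly all of them came from sperm. The members were chosen by length alone: every distinct sequence of 35 to 44 nt, the longest length listed. They numbered 322780 of 1302963 distinct sequences in mature sperm, 36376 of 2592365 in adult testis and 225 of 526203 in adult uterus. Over the 3 libraries together they came to 357397 of 4182219. All 3 sources were CD1 mice, which are outbred. Sperm were released from the cauda epididymis, where sperm are stored, and went through a somatic cell lysis buffer. Testis and uterus were from adults, and the labels give no further age and no number of animals. With 1 library per source there are no replicates, and no test was made. The intervals are 95% intervals for counting error only, because PCR copies are not independent molecules. In bulk samples fewer cells of a type and less RNA per cell cannot be told apart.

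A transfer RNA (tRNA) carries an amino acid to the ribosome and reads the messenger through the 3 bases of its anticodon, which lies in a loop near the middle of the molecule. When a tRNA is cut in that loop, a 5′ and a 3′ fragment result: a 5′ one that starts at the first base of the tRNA, and a 3′ one that ends in CCA, the tail added to every mature tRNA. Sperm are known for a high content of 5′ tRNA fragments. Histidine tRNAs carry an extra guanosine in front of their first base. Mitochondria transcribe tRNAs and ribosomal RNAs of their own. Testis is known instead for piRNAs, germ-line small RNAs that mostly begin with uridine, written T here.

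The sequences that carry the results are shown first, 5′ to 3′, as deposited. In the nuclear tRNA reads the capitals mark the anticodon bases that the read reaches, except in Leu-CAG, where the capital marks base 27 of the read. RefSeq (GRCm38.p6) lists genes of each group on several chromosomes, and the reads cannot be tied to 1 gene copy. In the mt-Th reads (mitochondrial histidine tRNA, chrM:11546-11612, plus strand, GRCm38) the capital marks annotated base 8, which follows 2 added G, or the CCA tail. The mt-Tq read comes from the mitochondrial glutamine tRNA (chrM:3772-3842, minus strand). The Snord21 read comes from a small nucleolar RNA (chr5:107904555-107904648, plus strand) encoded inside Rpl5. The Gly pair is shown because reads of 2 anticodons look alike (the Gly-CCC read is the second most abundant of its group, with 685 reads), and the mt-Th and Leu-CAG forms because they differ at 1 base.
His-GTG, 35 nt: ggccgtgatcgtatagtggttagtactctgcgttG
Leu-CAG, 35 nt, first form: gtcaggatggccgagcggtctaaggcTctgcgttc
Leu-CAG, 35 nt, second form: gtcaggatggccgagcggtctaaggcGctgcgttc
Glu-TTC, 36 nt: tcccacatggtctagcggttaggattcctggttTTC
Gly-GCC, 35 nt: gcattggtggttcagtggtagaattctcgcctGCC
Gly-CCC, 35 nt: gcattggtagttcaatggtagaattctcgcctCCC
Val-AAC/CAC, 36 nt: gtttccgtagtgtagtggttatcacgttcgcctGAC
mt-Th, 5′ read, 38 nt, T form: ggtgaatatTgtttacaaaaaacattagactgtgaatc
mt-Th, 5′ read, 38 nt, G form: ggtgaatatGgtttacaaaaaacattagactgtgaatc
mt-Th, 5′ read, 38 nt, A form: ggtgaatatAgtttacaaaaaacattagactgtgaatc
mt-Th, 3′ read, 40 nt: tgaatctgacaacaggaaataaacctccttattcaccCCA
mt-Tq, 5′ read, 39 nt: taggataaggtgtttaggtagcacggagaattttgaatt
Snord21, 39 nt: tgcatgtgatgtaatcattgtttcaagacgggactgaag

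Long reads were a large class in sperm and a trace elsewhere. Sperm had 1938402 long reads, testis had 54823 and uterus had 225. As a share of the library this was 12.4% in sperm (12.3 to 12.4), 0.231% in testis (0.229 to 0.232) and 0.00142% in uterus (0.00124 to 0.00162). Per 1000000 reads of a library (RPM), sperm stood 53.6-fold above testis (53.1 to 54.1) and 8717-fold above uterus (7649 to 9978). Testis stood 163-fold above uterus (143 to 186).

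Within the window the 3 libraries had different length profiles. In sperm the reads were most frequent at 35 nt, with 30.1% of the long reads, and at 36 nt, with 20.3%. Sperm then held a plateau of 7.17% to 8.74% at each length of 37 to 40 nt, with 166182 reads at 40 nt and 138998 at 39 nt, and 1.82% at 44 nt. In testis 45.1% of the long reads were 35 nt, the share was 1.95% at 39 nt, and a second peak stood at 42 nt with 8.88%. In uterus 38.7% of the 225 reads were 42 nt and 43.1% were 44 nt, while 10 reads were 35 nt. The lower edge of the window cut through a continuous profile: sperm had 1231957 reads of 34 nt and 583611 of 35 nt, testis had 74792 and 24727, and uterus had 59 and 10.

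The first base and the base composition also differed. Long sperm reads began with T in 35.6%, G in 31.5%, C in 17.01% and A in 15.9% of cases. Long testis reads began with T in 73.2%, and testis reads of 29 to 34 nt began with T in 91.9%. The long testis value joins 2 unlike parts: 68.2% T with 44.2% GC at 35 to 39 nt, and 93.0% T with 53.3% GC at 40 to 44 nt. Long uterus reads began with G in 32.9% and T in 31.6%. The GC content of the long reads was 53.3% (sperm), 46.3% (testis) and 66.6% (uterus). Reads ending in CCA were 64364 (3.32%) among the long sperm reads, 529 (0.965%) among those of testis and 0 of 225 in uterus.

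The long reads of sperm were concentrated in few sequences, and those of testis were not. The most abundant sequence held 7.35% of the long reads in sperm and 0.886% in testis. The 10 most abundant held 25.6% in sperm and 3.99% in testis, and the 100 most abundant held 43.1% and 11.2%. In sperm 215 sequences held 50% of the reads, against 8965 in testis. Thinned to the 54823 reads of testis, sperm still had 25.7% in its top 10 and held 17882 distinct sequences, against 36376 in testis. Each of the 225 uterus sequences had a single read. Singletons made up 75.3% of the distinct long sequences in sperm and 87.0% in testis. Compared with the sperm reads of 29 to 34 nt, where 7 sequences held 50% of the reads, the long reads of sperm were less concentrated.

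Overlap between the libraries was counted over the distinct long sequences. Sperm and testis had 1984 in common, 0.615% of the distinct long sequences of sperm and 5.45% of those of testis. The shared ones held 25.3% of the long sperm reads and 13.9% of the long testis reads. Uterus shared none of its 225 with either. Singletons were 75.3% (sperm), 87.0% (testis) and 100% (uterus) of the distinct long sequences, and overlap over all lengths was not counted. For these reasons nothing is read from the overlap. Among sequences with at least 100 reads in sperm and testis together, 1386 of 1403 long ones (98.8%) were at least 4-fold higher in sperm by RPM and 12 (0.855%) at least 4-fold higher in testis. Over all lengths the same rule found 16.3% higher in sperm and 74.4% higher in testis, of 33292 sequences. Nothing is read from these counts, because 1385 of the 1403 passed the filter on reads through sperm alone. Against uterus, 1385 of 1385 long sequences were at least 4-fold higher in sperm, where the rule found 43.4% higher in sperm and 50.6% higher in uterus over all lengths, of 14148. That count was fixed by the filter as well, since no long uterus sequence had more than 1 read.

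Origin was assigned by matching the whole read. Reads were nuclear tRNA where they met a cloverleaf rule for the 5′ or 3′ end (with, for the 5′ end, a family whose anticodon RefSeq lists), or stood 1 change from such a 5′ read. The other classes are exact sense matches to GENCODE mitochondrial, ribosomal (5S) and other genes. Nuclear tRNA took 35.4% of the long reads in sperm (35.3 to 35.4) and 0.354% in testis (0.306 to 0.407). Sperm held 43700 RPM of it and testis 8.16 RPM, so that sperm stood 5358-fold higher (4654 to 6199). This ratio depends on the rule, because the 5′ forms it accepts were kept by read number, and sperm supplied nearly all of those reads. By first bases alone Glu-CTC had 858 long reads in testis, more than the 194 given there to all nuclear tRNA. Mitochondrial genes took 4.76% in sperm and 0.0748% in testis. The 5S ribosomal genes took 0.798% in sperm and 0.0529% in testis, or 3.501% and 0.786% with antisense matches counted. Other genes took 8.55% in sperm and 6.99% in testis. No class was given to 50.5% of the long sperm reads, 92.5% of those of testis and all 225 of uterus. The exact interval of 0 of 225 reads in uterus reaches 1.63% for any class.

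**Figure D1:**
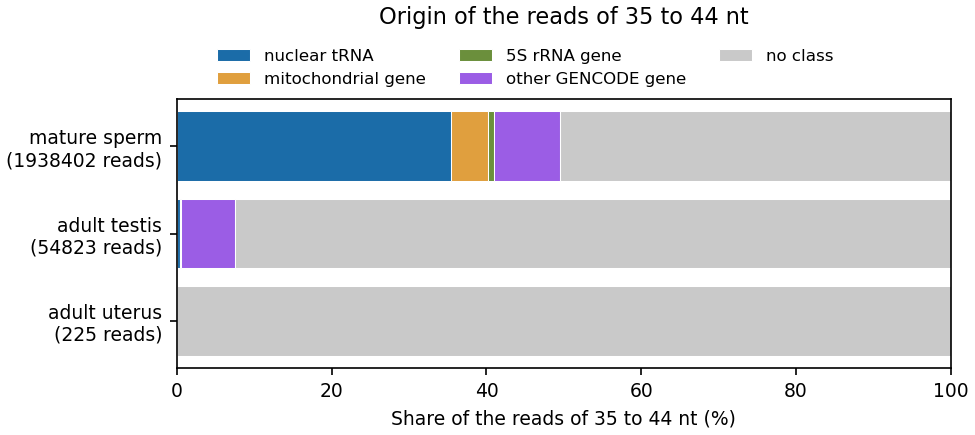
Share of the reads of 35 to 44 nt in each origin class, 1 bar per library. Nuclear tRNA fills 35.4% of the sperm bar and 0.354% of the testis bar, and the part without a class is 50.5%, 92.5% and 100% in sperm, testis and uterus.

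Among the reads that the rules gave to nuclear tRNA in sperm, nearly all were 5′ fragments. The 5′ rule took 569512 reads, 1 change from such a read 104204, and the 3′ rule with its CCA end 11973. The split depends in part on the rules, because no change was allowed at the 3′ end. In all, 64364 long sperm reads of any origin ended in CCA. In 40-base windows of GENCODE transcripts the 5′ rule was met by 0.126%, before any family was required. The tRNA share changed steeply with length, with 71.9% of sperm reads at 35 nt, 56.8% at 36 nt, 6.80% at 37 nt and between 1.25% and 5.10% at 38 to 44 nt. Few sequences carried it: 6747 distinct sequences, or 2.09% of the distinct long ones, made up the 5′ class with and without a change.

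By amino acid and anticodon 13 groups of tRNAs were recognised, and 3 of them held 81.8% of the 5′ reads in sperm. Glu-CTC led with 361110 reads, 53.6% of the class, or 23014 RPM. In testis it had 82 reads, 3.45 RPM, and the ratio of sperm over testis was 6675 (5378 to 8393). The ratio depends on matching the whole read: by the first 22 bases alone Glu-CTC had 278348 long reads in sperm and 858 in testis, a 492-fold difference (460 to 526). Of those 858, 203 held within 2 mismatches the 10-base run described last. Its leading sequences in sperm, of 36 and 35 nt, had 142427 and 100978 reads, against 11 and 27 in testis. A 35-nt form with 1 change had 47644 reads in sperm and 4 in testis. His-GTG followed with 110249 reads in sperm and 0 in testis, at least 55705-fold higher. Leu-CAG had 79785 reads in sperm and 0 in testis, at least 40312-fold higher. All 13 groups were at 0 among the long reads of uterus, and 4 of them were at 0 in testis.

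The other groups were smaller. Glu-TTC had 32525 reads in sperm and 16 in testis. Gly-GCC had 28515 in sperm and 57 in testis, 758-fold higher in sperm (585 to 1001). The proline set Pro-AGG/CGG/TGG had 23214 in sperm and 1 in testis. Val-AAC/CAC had 17321 in sperm and 7 in testis, and Asp-GTC 10225 in sperm and 8 in testis. Leu-AAG/TAG had 6662 in sperm and 0 in testis. Gly-CCC had 2215 reads, Arg-CCG/CCT/TCT 754, Gln-CTG 616 and Val-TAC 525 in sperm, against 2, 1, 4 and 0 in testis. In every group the sperm level lay above the testis level, and the intervals of counting error did not overlap. Nothing is read from this, because a group was kept only with at least 500 long reads over the libraries, and sperm supplied nearly all of them.

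**Figure D2:**
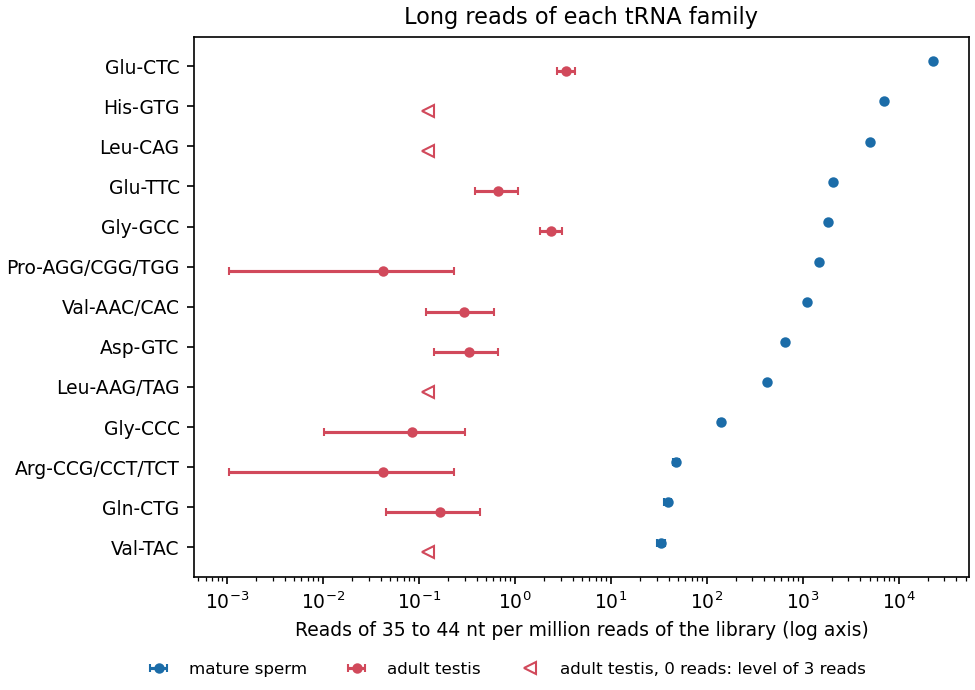
Long reads of each tRNA group in RPM on a log axis, with 95% Poisson intervals; open triangles stand at the level of 3 reads where testis had 0. Sperm lies at 33.5 to 23014 RPM and testis at 3.45 RPM or below in each group. Groups were kept by their number of long reads, nearly all of which came from sperm.

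How much of a tRNA's fragments fell into the long window differed widely between groups. Of the sperm reads of any length that begin with the first bases of the leading form, 95.2% were long for His-GTG, 55.9% for Leu-CAG and 50.8% for Asp-GTC. For His-GTG those first bases include the extra guanosine, so reads without it were not counted. The share was 7.91% for Glu-CTC, whose fragments peaked at 32 nt with 71.2%, and 1.05% for Gly-GCC, which peaked at 30 nt with 38.2%. Glu-CTC had 3517020 reads over all lengths in sperm, so its small long share was still the largest set of long reads. His-GTG peaked at 35 nt with 88.8% and Leu-CAG at 35 nt with 54.5%. Val-AAC/CAC (34 nt, 33.2%) and Gly-CCC (33 nt, 42.9%) peaked just below the window, with 15.6% and 13.7% long. Counted by its start in the same way, Glu-CTC had 0.580% long of 147998 reads in testis (858 reads), against 7.91% in sperm. Gly-GCC went the other way, with 14.6% long of 288 reads in testis against 1.05% in sperm. So did Gly-CCC, with 22.2% of only 9 reads in testis against 13.7%. In each of the remaining groups the testis share was the lower one, mostly from few reads.

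**Figure D3:**
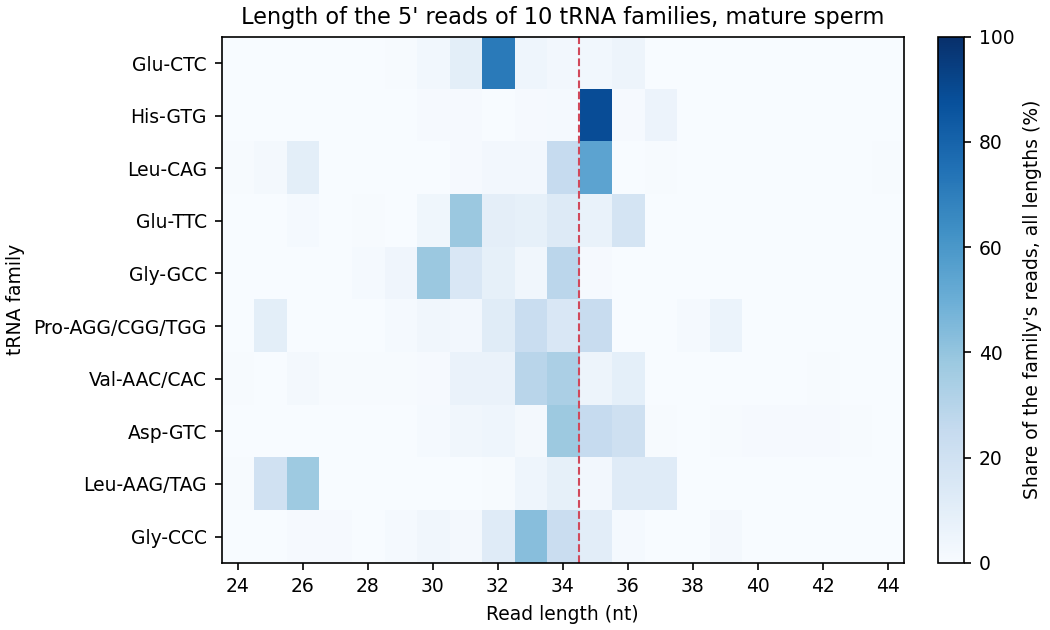
Length of the sperm reads that begin with the first bases of the leading form of 10 tRNA groups, as a share of each group's reads over all lengths; the dashed line marks the lower edge of the window. His-GTG has 88.8% at 35 nt and Leu-CAG 54.5% at 35 nt, while Glu-CTC has 71.2% at 32 nt.

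The ends of the long 5′ reads were counted in the 11 groups other than the Leu ones. They lay mostly in the anticodon, but the window limits where they can lie. In these 11 groups a read of 35 nt already reaches the anticodon, so earlier ends are not counted. Where the Leu reads end against their anticodon was not counted. Gly-GCC, by the first bases of its leading form, had 485879 sperm reads of 34 nt and 14614 of 35 nt. Over the 11 groups other than the Leu ones, 55.3% ended at the third anticodon base, 24.9% at the second and 16.3% at the first, while 0.890% ended within the 3 bases after it and 2.67% farther on. Of the long His-GTG reads, which mostly carry an added base, 86.6% ended at the first anticodon base, as in the sequence shown. Among the 11 groups all long reads counted at that base were from His-GTG, but the window fixes this. In the leading forms of the others among the 11, a read that ends there is too short to be counted. By first bases, 58.1% of the Val-TAC sperm reads and 13.1% of the Glu-TTC ones were 34 nt, which ends at that base in their leading forms. The groups therefore cannot be compared at this base. Glu-CTC ended at the third base in 66.4% and at the second in 32.2%. Gly-GCC ended at the third base in 74.5%, with 22.4% reaching more than 3 bases past the anticodon, and Pro-AGG/CGG/TGG had 18.6% that did. Gln-CTG was alone in having most of its long reads, 53.2%, end that far past the anticodon. Asp-GTC divided evenly, with 47.5% at the second base and 47.2% at the third.

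Histidine and proline reads often began with a base ahead of base 1. An added base was present in 93.2% of the long His-GTG reads, where it is the first g of the sequence shown, and in 18.2% of the long proline reads. In Gly-GCC it was present in 0.526%, and in the Glu, Leu, Val and Asp groups in none. The first base of His-GTG was the most often changed one of that group. Against the leading form, counted from 1 at the 5′ end of the read, G1T had 3832 reads and G1A 933, next to 92477 unchanged reads.

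Some groups held several sequence forms. Gly-GCC reads carried G6T in 6402 reads, against 16232 without a change from the leading form. Glu-TTC carried C6T in 8460, against 18736. Val-AAC/CAC carried G34C, at the first anticodon base, in 3771, against 10149 reads of the form shown with GAC. RefSeq names this group AAC and CAC, and a G read at the first anticodon base was taken as A when groups were named. The leading proline form likewise has GGG where the names are AGG, CGG and TGG. Whether such a form is another gene copy or a changed base was not tested, because nuclear tRNA gene sequences were not used here.

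Leu-CAG varied most at base 27, and less at base 26, where C26T had 4546 reads. A read was taken to hold the base where the 4 bases after it followed, and to lack it where they stood in its place. Of 66177 long sperm reads, 62.6% had T at base 27, 26.1% G, 5.58% A and 3.20% C, and 0.198% lacked the base. Of 34737 sperm reads of 31 to 34 nt, 60.1% lacked the base, 25.4% had T, 7.31% G, 0.754% C and 0.607% A. The most abundant 34-nt read of this group, with 19834 reads, equals the leading 35-nt form without base 27. That read and the 35-nt form share their last base and lie on either side of the lower edge of the window.

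By exact matches mitochondrial RNA was a smaller source in sperm (4.76% of the long reads) than nuclear tRNA or the other genes (8.55%). Of the exact reads 2 genes held most. The mitochondrial share was 8.40% with the added G described below and 5.82% with 1 substitution allowed. These 2 settings were not combined, so the order against the other genes depends on the matching. The large ribosomal RNA mt-Rnr2 (chrM:1094-2675, plus strand) had 58759 exact long reads in sperm and 13 in testis. The histidine tRNA mt-Th had 23362 in sperm and 2 in testis. The small ribosomal RNA mt-Rnr1 (chrM:70-1024) had 4461 in sperm and 2 in testis, and the glutamine tRNA mt-Tq 3538 in sperm and 1 in testis. Further tRNAs with over 100 reads in sperm were mt-Tg (glycine) with 555, mt-Ti (isoleucine) with 462, mt-Tt (threonine) with 318, mt-Ts2 (serine) with 274 and mt-Tm (methionine) with 138. In testis mt-Tg had 19 reads, mt-Ts2 had 1, and mt-Ti, mt-Tt and mt-Tm were at 0. Uterus had none of any mitochondrial gene.

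The tRNAs differed in which end was read. mt-Tq reads began at the first annotated base in 96.4%, those of mt-Ts2 in 94.5%, and the leading mt-Tq read of 39 nt had 2551 copies. The exact mt-Th reads came from the 3′ side: 75.6% ended at the last base of the CCA tail, and 70.1% began at annotated base 31. The leading mt-Th 3′ read of 40 nt had 15825 copies in sperm and 1 in testis. In mt-Rnr2 the reads came from many places, and the most frequent start, base 1254, held 13.5% of them.

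The 5′ reads of mt-Th appeared once 2 bases ahead of the annotation were allowed. These reads begin with G and G before annotated base 1, and 70440 of them in sperm had at most 1 further substitution, against 5 in testis and 0 in uterus. Together with the exact reads, mt-Th had 93802 long reads in sperm, 4.84% of all long reads there. The anticodon begins at annotated base 30. The 5′ reads ended mostly at base 36 (28.9%), base 38 (28.1%) and base 39 (13.6%), past the anticodon, whereas the 3′ reads began inside it. The leading 5′ and 3′ reads therefore overlap by several bases.

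Base 8 of mt-Th was read as several bases, and the mixture differed between read lengths. The annotated base is A, and reads were judged by the 4 following bases as for Leu-CAG. Of 93202 long sperm reads that begin with the same bases before it, 32.7% had T, 28.7% A, 24.9% G and 1.91% C, while 2.899% lacked the base and 8.84% could not be placed. Of 102805 sperm reads of 18 to 34 nt, 80.3% had A, 4.51% T and 3.59% G, and 10.8% could not be placed. The mixture was not the same at each length. At 34 nt, where the read ends at the third anticodon base, 88.0% of 88813 reads had A. At 38 nt 17.9% of 27954 reads had A and 40.3% T, and at 40 nt 27.1% of 24418 had A and 36.5% T. The shares did not change steadily with length, since 1452 reads of 26 nt had A in 44.8%. In testis 11 long and 5 shorter reads began with the same bases. Of the shorter ones 2 could not be placed, and none of the other testis reads had A.

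**Figure D4:**
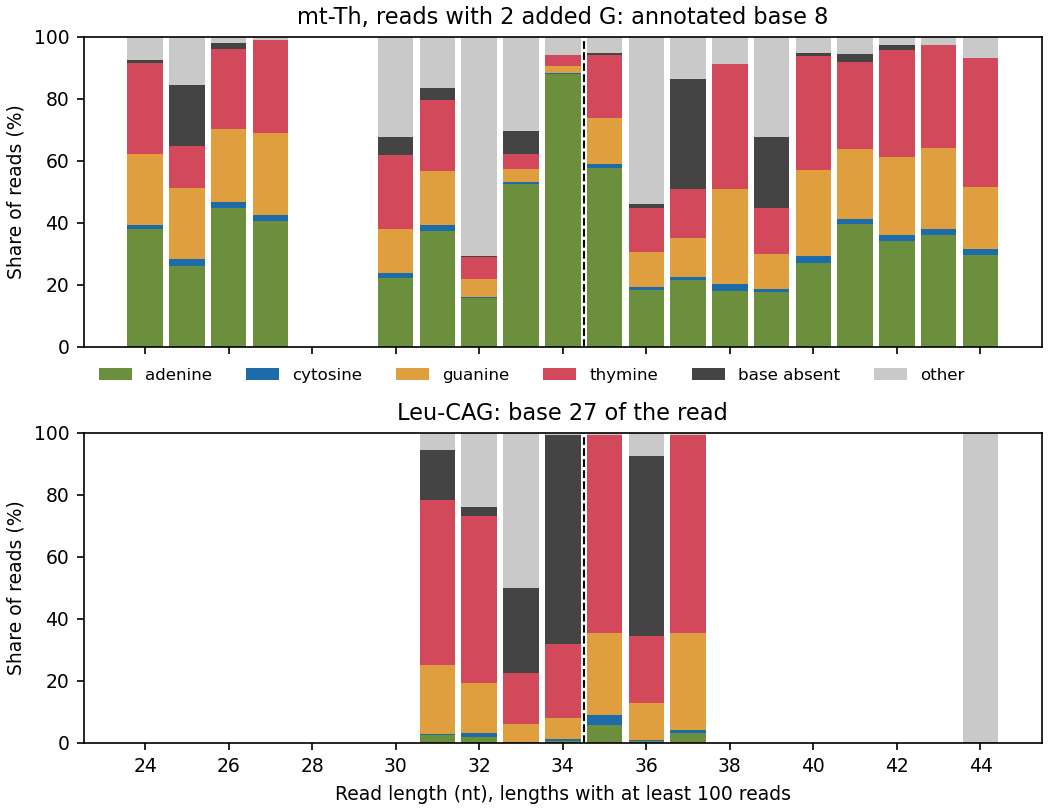
Base found at annotated base 8 of mt-Th in sperm reads with 2 added G (top) and at base 27 of Leu-CAG sperm reads (bottom), as a share of the reads of each length with at least 100 reads; black marks reads without the base, grey reads that could not be placed, and the dashed line the lower edge of the window. At 34 nt mt-Th has adenine in 88.0% and at 38 nt in 17.9%, and the base is absent from 67.3% of the Leu-CAG reads at 34 nt and from 0.0124% at 35 nt.

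Single changes in mitochondrial reads sat often on the last base. In sperm 21485 long reads stood 1 substitution from a mitochondrial or 5S gene, and in 59.9% (59.2 to 60.5) the changed base was the last of the read, where an even spread over the read would give 2.57%. The base found there was A in 88.7% of them. For mt-Rnr2 alone it was 71.6% of 15166 reads. For the mt-Th reads with 2 added G the last base held 7.25% of the single changes, since base 8 held most, and A was found there in 93.3%. Among nuclear tRNA 5′ reads with 1 substitution the last base held 3.15% of 33872, near the even share of 2.80%. That share cannot be set against the mitochondrial one, because these reads were compared with abundant reads of the libraries and not with an annotation. A form with a changed last base and at least 50 reads counts there as exact.

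The 5S ribosomal RNA had 15473 exact long reads in sperm and 29 in testis. GENCODE holds many 5S copies with the same sequence, and the reads cannot be divided among them. In Gm22109, the copy that counts for 98.9% of them, 43.5% of the sperm reads began at the first base, and the leading read of 39 nt had 4533 copies in sperm and 0 in testis.

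Other annotated genes gave 165653 long reads in sperm and 3834 in testis, spread over many genes. Protein-coding genes held 41.2% of them in sperm and 30.5% in testis, and long noncoding (lincRNA) genes 23.9% in sperm, with 39663 reads, against 36.05% in testis, with 1382. In sperm 35506 of those 39663 were reads of 1 gene, Gm42418. Spliceosomal snRNAs, which cut introns out of messengers, held 14.3% in sperm and 0.209% in testis: 23674 reads against 8, a ratio of 4486 (2276 to 10391). The snoRNAs and scaRNAs, which guide RNA modification, stood at 21701 sperm reads and 319 testis reads, 103-fold higher in sperm (92.3 to 116). Pseudogenes stood at 2969 and 406, 11.1-fold higher in sperm (9.99 to 12.3). MicroRNA hairpins had 654 in sperm and 27 in testis.

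The leading gene of this class was Gm42418 (chr17:39846958-39848788), with 35506 reads in sperm and 266 in testis. RefSeq gives Gm42418 as a synonym of Rn18s-rs5, which it lists as a pseudogene. Snord21 had 11427 in sperm and 9 in testis, and the reads match a transcript of its host gene Rpl5 as well. The snRNA copies Gm22056 (7173 in sperm, 1 in testis), Gm22057 (6868, against 0), Gm23849 (2182, against 5), Gm22003 (2056, against 0) and Gm24525 (1302, against 0) are among many near-identical copies. Tmem38b, a gene of a cation channel, had 6078 in sperm and 6 in testis. The first 36 bases of its leading read of 37 nt are also found in a 5S gene, so that the assignment is uncertain. Rn7s1, the RNA of the signal recognition particle, had 2882 in sperm and 6 in testis, and Lars2, a mitochondrial leucyl-tRNA synthetase gene, 2410 in sperm and 44 in testis.

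Gm42418 had the most reads of this class in testis as well, and the genes after it differed from those of sperm. The lincRNA gene 1700029M20Rik had 11 long reads in sperm, against 258 in testis, and its sperm over testis ratio was 0.0646 (0.0319 to 0.118). Gm18009, a processed pseudogene, had 101 in sperm and 182 in testis, Gm10845 66 in sperm and 150 in testis, and Gm21269 30 in sperm and 114 in testis. The ratio of Gm18009, 0.841 (0.653 to 1.08), has an interval that includes 1.

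Messages of spermatids were present in the long reads of sperm at low counts. All 18 listed genes had reads in sperm and 6 in testis, with sums of 1438 and 8 reads. Smcp, a sperm mitochondrial capsule protein, had 450 in sperm and 1 in testis, Prm2, a protamine that packs sperm DNA, 297 and 0, and Odf1, a protein of the tail fibres, 170 and 0. Of the 9 listed Y, vault, 7SK, 7SL, RNase P and MRP RNAs, 7 had reads in sperm and 2 in testis, led by Rn7s1, and Rmrp had 287 and 0. A shorter list of 7 spermatogenic genes, all among these 18, held 1004 of the reads in sperm and 4 in testis. Markers of other cells were rare but not absent. Of 11 epididymis genes, Crisp1 had 283 long reads and Adam7 had 20 in sperm, the other 9 were at 0, and in testis all 11 were at 0. Leukocyte genes summed to 38 reads in sperm, smooth muscle genes to 22, uterus genes to 17, Sertoli and Leydig genes to 3 and red blood cell genes to 2, and these lists were at 0 in testis. Nothing is read from the testis zeros, because testis had 3834 long reads of other genes in all, against 165653 in sperm. Uterus had no reads on any list. Akr1b7, known from the vas deferens and chosen here after its values were seen, had 663 reads in sperm and 0 in testis. The part of such cells in the long reads was not tested.

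Many of the unassigned sperm reads fell into large groups of like sequence. Among 979271 such reads, 7.19% were the mt-Th reads with added G, 2.19% had 1 substitution against a mitochondrial or 5S gene and 1.72% were a named tRNA with 2 or 3 bases deleted. Another 2.22% matched an annotated RNA once the last 3 bases were dropped, 2.17% were antisense to one, and 8.48% matched one over 25 bases at an end. The rest, 739911 reads or 38.2% of the long reads of sperm, matched in no part. When sequences sharing 20 bases were joined, the 10 largest groups held 33.9% of these. The first had 55944 reads, the second 53205, the third 38488 and the fourth 24929, with 58.5% to 66.7% GC in their leading reads. In the second group 96.8% of the reads shared their first bases. The leading read of the fifth group, with 17138 reads, differed from mt-Th with 2 added G at 2 bases. The sequences of the large cytoplasmic ribosomal RNAs were not used here, and whether the groups belong to them was not tested.

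The unassigned reads of testis were of another make. They numbered 50725, of which 809 held a named tRNA over 18 bases only and 88.4% matched in no part, and the 10 largest groups held 21.4% of those. The largest group, with a leading read of 42 nt, had 5529 reads in 2643 sequences. It made up 10.1% of the long testis reads, and the next group had 1020 reads. The most abundant long testis sequence, of 35 nt, had 1 read in sperm and 486 in testis, and the second had 0 in sperm and 338 in testis. Long reads were compared with shorter reads of the same library: in testis, for 61.0% (60.6 to 61.4) the first 30 bases were themselves a read with more copies, against 15.4% (15.3 to 15.4) in sperm and 2.22% in uterus. This share depends on the number of bases (35.6% in testis with 25 and 41.2% with 32), and on the copies of the long read, since without the condition on copies it was 74.6% in sperm and 73.2% in testis. In sperm the share with more copies was 10.8% for tRNA 5′ reads and 74.2% for their forms with 1 change.

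A run of 10 bases was held by part of the longest reads of testis and uterus. It was taken as the most frequent base at each of the last 10 positions of the 41-nt testis sequences, with 39.6% to 74.2% support per position. Its testis shares are therefore drawn in part from the reads that defined it. With at most 1 mismatch it was held by 0.00975% of the long sperm reads, 3.16% of the testis ones (3.01 to 3.31) and 27 of the 225 uterus ones. At 40 to 44 nt these shares were 0.0364% for sperm, 15.4% for testis and 12.3% for uterus. Allowing 2 mismatches, it was in 0.788%, 42.7% and 25.9%. Of the testis reads that hold it with at most 1 mismatch, 48.0% share their first 18 bases. That start opens with the same bases as the Glu-CTC reads but equals over 18 bases none of the 13 leading tRNA forms. The run equals the start of a 3′ adapter sold for small RNA libraries. Which adapter was used is not stated in the labels. Its part in the second peak was not tested. In uterus the first 25 bases were a more abundant read for 74.2% of the long reads, although the first 30 were for 2.22%.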

How the data were processed

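Each deposited table holds 1 line per distinct read with its count, a whole number that looks unnormalized. Per the submitters' processing notes the build was mm9. How reads were trimmed is not stated in the labels. The sperm library held 15690722 reads, the testis library 23783785 and the uterus library 15876066. 1 line without a sequence was left out in sperm and in testis. Sequences of 35 to 44 nt were matched over their whole length to GENCODE M21 transcripts (GRCm38), with CCA added to the 22 mitochondrial tRNAs. Coordinates are GRCm38 and were not converted.

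The tRNA list planned at first was replaced, because nuclear tRNA sequences were not in the reference used. A read met the 5′ rule with the conserved bases and stem pairing of the D arm, from base 1 or after 1 added base, and the 3′ rule with a CCA end and the T loop and stem. Families shared 22 first bases with at most 1 mismatch, had at least 500 long reads and at least 10 reads over an anticodon that RefSeq (402 nuclear tRNA genes by name) lists, where a G read at its first base was also taken as A. Templates had at least 50 reads. Tails without CCA and families below these limits count as no class. A transcript that is no tRNA can meet the 5′ rule by its bases alone.

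Shares have exact Clopper-Pearson, RPM exact Poisson and ratios conditional exact binomial 95% intervals. A ratio against 0 used 3 counts and is a bound, and pairs of counts of 3 or fewer got none. Named sequences are the most abundant ones of each library and class, and named genes those with most long reads. Some leading sequences are not reported here. The members and lists were chosen with earlier results of these data known. The scripts recovered the answers of simulated fragments. Python 3.11.15, matplotlib 3.10.9, numba 0.67.0, numpy 2.4.6, scipy 1.17.1 and pandas 2.3.3 were used. Further settings were added after seeing the data.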

Additional observations from a re-analysis of the deposited data

How the results depend on the processing

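With 1 library per group, no replicate could be left out, and no paired analysis was possible because each group holds a single library. Values are compared by whether they stay within the counting interval, which is narrow. The share of long reads was 24.8% in sperm, 1.40% in testis and 0.0428% in uterus over distinct sequences; 8.63% and 0.127% in sperm and testis at 36 to 44 nt; 20.2%, 0.545% and 0.00179% at 34 to 44 nt; and 11.5% and 0.105% in sperm and testis without singletons (uterus then has none). Nuclear tRNA in sperm was 2.58% of distinct sequences, 40.2% without singletons, 19.6% at 36 to 44 nt, 29.998% with exact matches only, 36.2% with deletions of 2 or 3 bases and 35.6% without reads holding the 10-base run. The mitochondrial share in sperm was 1.35%, 5.35% and 6.27% under the same first settings, 5.82% with 1 substitution, 5.93% with the last 3 bases free and 8.40% with the added G. The share without a class in sperm was 75.8%, 46.8%, 62.5%, 55.9% (exact tRNA), 49.4% (1 substitution), 48.6% (last 3 bases free), 49.4% (antisense counted), 46.9% (added G), 49.7% (deletions) and 50.3% (run left out); in testis it was 93.5% of distinct sequences, 90.8% without singletons, 90.3% with the last 3 bases free, 91.2% with antisense and 91.8% with the run left out. It stayed at 100% in uterus. The 10 leading sequences held 25.7% in sperm after thinning and 29.3% without singletons, and 9.45% in testis. The ratio of sperm over testis was 61.8 for long reads per read of 29 to 34 nt, and 99.96 for nuclear tRNA as a share of the long reads. At least 4-fold higher in sperm than in testis were 97.4% with at least 20 reads and 100% with at least 500, which the filter on reads fixes, since long sequences pass it through sperm. Longer forms of a more abundant start were 10.2% and 29.4% in sperm, 35.6% and 41.2% in testis with the first 25 and 32 bases, and 74.2% in uterus with 25; the causes were not tested. No sign changed in any of these. Counted by their first bases alone, the long Glu-CTC reads gave a sperm over testis ratio of 492 in place of 6675. The added G, the deletions, the run, the count by first bases and the rule for a missing base were chosen after seeing the data.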
